A study of Mus musculus with 9 samples.

Results

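The 46 genes described here encode proteins that copy DNA in S phase, and they were taken by gene symbol from a deposited expression table of 22399 genes. They cover 10 roles: origin licensing, the Mcm2 to Mcm7 helicase, its activation, polymerases and primase, the sliding clamp and its loader, strand maturation, nucleotide supply, control of S phase entry, copying of chromatin, and fork protection with uracil repair. All 46 were found. RNA had been sequenced from interfollicular basal cells of mouse plantar skin. These cells sit on the basement membrane and divide to renew the skin surface. They were sorted as positive for CD49f, the integrin alpha 6 chain carried by basal cells, and negative for CD34, which marks stem cells of the follicle bulge. All animals were C57BL/6 with the WT genotype, and 3 libraries were made per group. Control animals ate a normal diet and HFD animals a high-fat diet, and both groups were 5 months old. The aged group was 24 months old, with no diet named. Nothing in the labels says that a group's samples are separate animals. The p-values here thus rest only on the spread among samples within groups, pooled over the 3 groups, and that spread may be technical.

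Before S phase, the origin recognition complex, Cdc6 and Cdt1 load the Mcm2 to Mcm7 helicase onto chromatin. Kinases, Cdc45, Mcm10 and the GINS proteins then start it, and polymerases held on DNA by the PCNA clamp copy both strands. In the epidermis this machinery is found chiefly in the basal layer, where cells divide, and many of its genes are transcribed under E2F factors as cells leave G1. In bulk RNA, fewer cells in S phase and less of these transcripts per cell cannot be told apart.

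Levels are the deposited FPKM, the number of fragments scaled by gene length and by library size. Levels of different genes thus depend on the length taken for each. Low values fell on whole reads when all annotated exons of a gene were merged into 1 length, so the scaling matches such merged exon lengths. Differences are log2(FPKM + 1) of one group minus another ± SE, from limma fitted to the 10367 genes whose mean reached 1 FPKM, and adjusted p-values (Benjamini-Hochberg, over all of them) under 0.05 count as calls. Depth was estimated at 23.5 to 35.8 M reads per library, and every member rested on at least 199 estimated reads in every library. All 10 basal keratinocyte markers listed had a mean above 1 FPKM in each group. So did the 15 spinous and granular markers except Lce1a1, a late cornified envelope gene, whose mean was 3.49 FPKM in control but 0.633 in HFD and 0.930 in aged. Endothelial, melanocyte and Merkel cell markers had no gene at a mean of 1 FPKM. Among 10 T cell markers, Cd4 and Cd8a were at 0 in every library. Cd34, the marker sorted against, did not pass 0.0671 FPKM.

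Many S phase genes are known for E2F sites in their promoters, so promoters are shown here for the helicase genes Mcm3, Mcm5 and Mcm7 and for Pcna, which were lower in aged cells than in both other groups, and for Mcm6, which was called in no comparison. Each runs 5′ to 3′ on the gene's own strand, from 250 bases before to 50 bases after the annotated start (RefSeq, GRCm38.p6), and capitals mark E2F words. Positions on the reference are chr1:20820263-20820562 on the minus strand for Mcm3, chr8:75109259-75109558 on the plus strand for Mcm5, chr5:138171834-138172133 on the minus strand for Mcm7, chr1:128359656-128359955 on the minus strand for Mcm6 and chr2:132253131-132253430 on the minus strand for Pcna. Mcm7 has a second annotated start, whose window held none of these words. Fen1, also lower in aged cells than in both other groups, is not shown, and its windows held no E2F word.
Mcm3: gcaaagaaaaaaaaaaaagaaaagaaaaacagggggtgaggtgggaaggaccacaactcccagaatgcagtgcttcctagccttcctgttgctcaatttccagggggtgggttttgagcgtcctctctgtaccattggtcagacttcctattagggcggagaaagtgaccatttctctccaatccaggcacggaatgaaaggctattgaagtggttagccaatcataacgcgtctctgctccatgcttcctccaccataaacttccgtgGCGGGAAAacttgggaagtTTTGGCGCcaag
Mcm5: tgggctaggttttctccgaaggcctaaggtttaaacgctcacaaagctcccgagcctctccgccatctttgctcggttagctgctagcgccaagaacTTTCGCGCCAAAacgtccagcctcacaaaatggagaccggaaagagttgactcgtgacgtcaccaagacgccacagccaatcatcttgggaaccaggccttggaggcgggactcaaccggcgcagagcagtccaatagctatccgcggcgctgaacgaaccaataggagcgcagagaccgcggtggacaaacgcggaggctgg
Mcm7: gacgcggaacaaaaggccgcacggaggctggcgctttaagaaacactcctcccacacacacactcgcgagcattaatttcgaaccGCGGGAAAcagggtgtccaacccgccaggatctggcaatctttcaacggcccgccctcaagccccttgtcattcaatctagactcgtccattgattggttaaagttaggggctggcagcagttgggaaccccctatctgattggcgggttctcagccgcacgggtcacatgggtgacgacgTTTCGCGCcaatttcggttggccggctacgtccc
Mcm6: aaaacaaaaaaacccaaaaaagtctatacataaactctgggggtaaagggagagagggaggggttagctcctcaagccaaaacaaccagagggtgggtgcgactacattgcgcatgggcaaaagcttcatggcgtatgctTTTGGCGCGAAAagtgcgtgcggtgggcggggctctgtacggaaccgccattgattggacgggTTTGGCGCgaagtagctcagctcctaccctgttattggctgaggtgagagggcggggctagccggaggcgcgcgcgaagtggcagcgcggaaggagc
Pcna: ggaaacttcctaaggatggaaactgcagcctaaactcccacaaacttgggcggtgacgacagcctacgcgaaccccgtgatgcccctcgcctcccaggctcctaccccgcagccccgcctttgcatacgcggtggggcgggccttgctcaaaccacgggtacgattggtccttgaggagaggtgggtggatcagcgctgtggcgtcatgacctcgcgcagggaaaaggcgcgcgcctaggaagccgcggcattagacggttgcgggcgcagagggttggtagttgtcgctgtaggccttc
The words searched, on both strands, were TTTCCCGC, TTTGGCGC, TTTCGCGC and TTTGCCGC. In Mcm5 the capitals hold TTTCGCGC and, on the other strand, TTTGGCGC, which overlap. Mcm6 has a like overlapping pair and another TTTGGCGC nearer the start. The Pcna window held no such word, which says only that these letters are not in it.

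RefSeq promoters were matched for 37 of the 46 members, with 44 windows in all. An E2F word stood in 36.4% of the members' windows (16 of 44, in 16 genes), against 4.15% of the 10663 windows of tested genes and 2.26% of all 32851 windows. The 44 windows of a list of G2 and mitosis genes, whose products act later in the cycle, held one in 6.82%. The windows were also read for words of other kinds, and a base could count towards more than 1 kind. CCAAT, the site of factor NF-Y, was in 59.1% of the members' windows, 77.3% of the mitotic windows and 37.8% of tested windows. The cell cycle homology words TTTGAA and TTCGAA were in 15.9%, 72.7% and 13.9%. Among the 15 members called in any comparison, Cdt1, Clspn and Uhrf1 also had an E2F word, whereas Fen1, Mcm2, Rrm1, Rrm2 and Tyms had none in their windows, and Mcm4, Rfc2 and Tipin were not matched. A match describes the sequence and does not show that a factor binds there.

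Across the 9 libraries the members spanned a wide range of levels. Pcna had the highest mean, at 62.7 FPKM, followed by Mcm6 at 47.6 and Rrm2, the regulated subunit of ribonucleotide reductase, at 47.5. The lowest were Cdc6 at 2.05, Mcm10 at 2.47, Dtl, a ubiquitin ligase adaptor that clears Cdt1 in S phase, at 2.61 and Orc1, the largest subunit of the origin recognition complex, at 2.77. Subunits of one complex did not share one FPKM level, which also rests on the length taken for each. In control, Mcm6 made up 23.5% ± 0.56 (SD, n = 3) of the summed FPKM of Mcm2 to Mcm7, and Mcm2 made up 8.54% ± 0.38. These shares were 23.7% ± 1.29 and 8.56% ± 0.28 in HFD and 26.2% ± 1.59 and 8.41% ± 0.19 in aged. Mcm5 held 18.1% ± 0.70 in control, 17.1% ± 1.77 in HFD and 15.8% ± 0.87 in aged. Merged exon lengths were 6956 bases for Mcm2, 3752 for Mcm3 and 4666 for Mcm6, and 13709 for Dtl among the lowest members. In its lowest library Mcm2 rested on 2747 estimated reads and Mcm3 on 2528, so the low share of Mcm2 does not mean fewer reads than Mcm3.

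**Figure D1:**
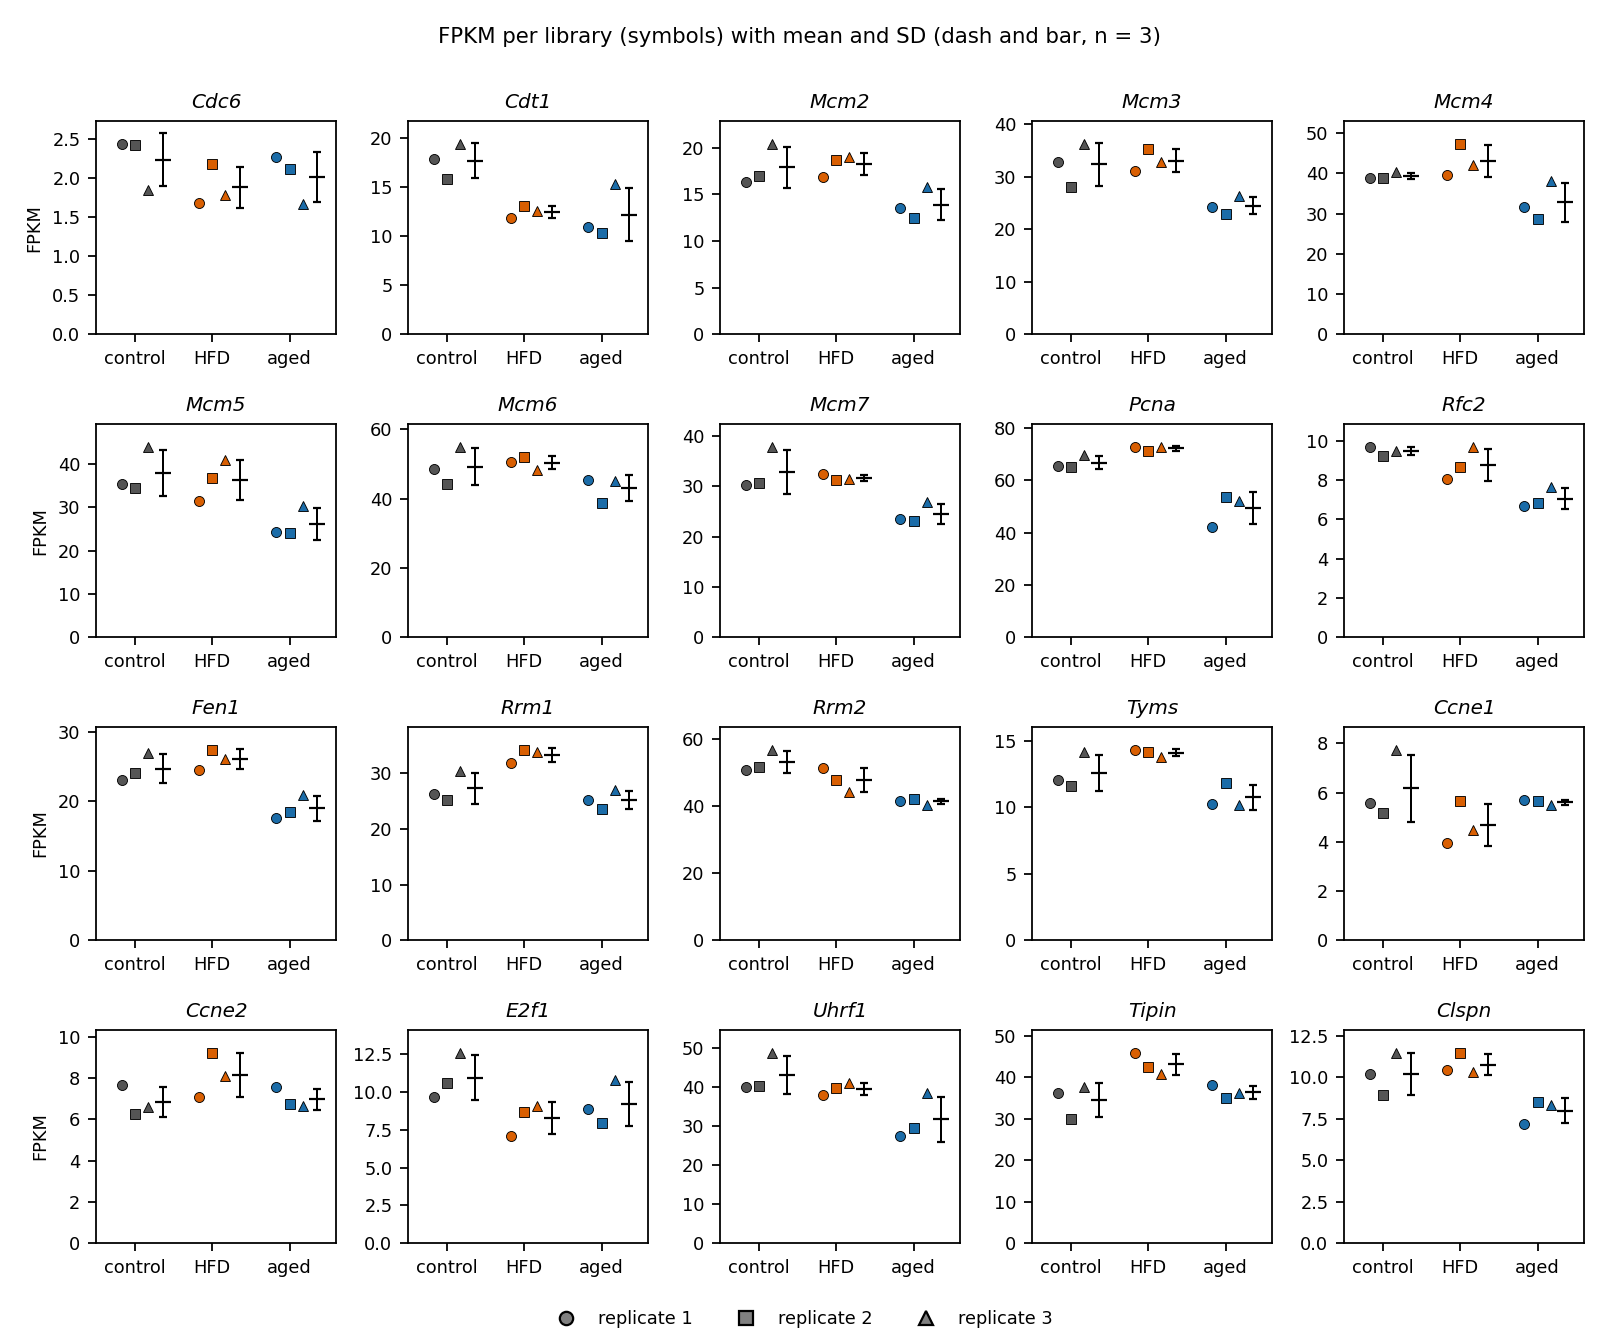
FPKM of 20 members, 1 panel each on a linear axis from 0, with 1 symbol per library (shape gives the replicate) and the mean and SD of the 3 libraries of control, HFD and aged beside them. Aged libraries lie below all others for Pcna, Mcm2, Mcm3, Mcm4, Mcm5, Mcm7, Rfc2, Fen1, Rrm2 and Clspn, while Cdt1 lies lower in HFD and aged than in control.

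The comparison of aged with control animals asked how basal cells of 24-month-old mice differ from those of young adults. A share of the replication genes fell in aged cells. Of 46 members, 9 fell and 0 rose, which is 19.6% lower, where 3.74% of all tested genes were called lower and 4.01% higher. Those that fell were the licensing factor Cdt1, the helicase subunits Mcm3, Mcm5 and Mcm7, the clamp Pcna, the clamp loader subunit Rfc2, the flap endonuclease Fen1, the reductase subunit Rrm2 and the chromatin protein Uhrf1. The median difference of all members was -0.23, against -0.01 for all tested genes, and 42 of 46 members lay below 0. The 4 exceptions were Prim1, Rfc1, Ccne2 and Tipin, with differences of 0.10, 0.01, 0.02 and 0.08. Every aged library was below every control library for 17 members (37%), as against 14.1% of all tested genes, and the reverse held for 0 members and 13.7% of all.

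Among the helicase genes, all 6 had a negative difference and 3 were called. Mcm5 was at 35.3, 34.5 and 44.0 FPKM in control replicates 1 to 3 and at 24.2, 24.0 and 30.3 in aged. The groups did not overlap, and Mcm5 fell by 0.52 ± 0.12 (adjusted p = 0.0296). Mcm7 was at 30.2, 30.6 and 37.9 in control and 23.6, 23.1 and 26.9 in aged, again without overlap (-0.41 ± 0.09, adjusted p = 0.025). Mcm3 was at 32.8, 27.9 and 36.2 in control and 24.2, 22.9 and 26.2 in aged, and it too was lower in each aged library (-0.38 ± 0.10, adjusted p = 0.0356). The other subunits did not pass. Mcm2 was at 16.4, 17.0 and 20.4 in control and 13.5, 12.4 and 15.7 in aged (-0.34 ± 0.10, adjusted p = 0.064). Mcm4 was at 38.9, 38.8 and 40.2 in control and 31.6, 28.7 and 38.1 in aged, and these groups came close without overlapping (-0.26 ± 0.10, adjusted p = 0.125). Mcm6, the subunit with the highest FPKM, was at 48.5, 44.2 and 54.9 in control and 45.3, 38.8 and 45.2 in aged. Its groups overlapped (-0.18 ± 0.09, adjusted p = 0.223). The 6 genes summed to 202, 193 and 234 FPKM in control and to 162, 150.0 and 182 in aged.

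Of the licensing genes that load this helicase, 1 of 4 was called. Cdt1 was at 17.9, 15.8 and 19.4 FPKM in control and 11.0, 10.3 and 15.4 in aged, and it fell by 0.52 ± 0.13 (adjusted p = 0.0316), with aged replicate 3 just under the lowest control library. Cdc6, its partner at origins, was at 2.44, 2.43 and 1.84 in control and 2.27, 2.11 and 1.67 in aged, with overlap (-0.10 ± 0.12, adjusted p = 0.634). Orc1 and Orc6 had -0.23 ± 0.14 and -0.15 ± 0.09. No helicase activation gene was called, and Mcm10, Cdc45 and Gins1 to Gins4 ranged from -0.34 to -0.02. Nor was any of the polymerase and primase genes. The largest difference among them was that of Pold1, the catalytic subunit of polymerase delta, at -0.47 ± 0.14 (adjusted p = 0.0589).

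The clamp showed the smallest adjusted p of the members. Pcna was at 65.3, 65.2 and 69.5 FPKM in control and 42.2, 53.6 and 51.8 in aged. All aged libraries were well below all control libraries, and Pcna fell by 0.44 ± 0.09 (adjusted p = 0.0143). Of the loader subunits that open the clamp, Rfc2 fell by 0.38 ± 0.08 (adjusted p = 0.0203), from 9.70, 9.25 and 9.50 FPKM to 6.67, 6.83 and 7.65, without overlap. Rfc1, Rfc3, Rfc4 and Rfc5 were not called and had 0.01 ± 0.07, -0.03 ± 0.09, -0.24 ± 0.10 and -0.20 ± 0.09. Fen1, which trims the flaps of lagging strand fragments, was at 23.0, 24.2 and 27.0 in control and 17.6, 18.5 and 20.9 in aged, without overlap (-0.37 ± 0.09, adjusted p = 0.0278). Lig1, which seals these fragments, had -0.14 ± 0.10 and was not called. Exons of Fen1, Rfc2 and Mcm7 overlap those of genes on the other strand over 2039, 952 and 385 bases, and the strand setting of the read counting is not given in the sources used here. In Pcna, Mcm7 and Uhrf1, 19.1%, 18.1% and 15.4% of the 50-base stretches also occur in other transcripts, and how reads from these were counted is likewise not given.

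In nucleotide supply, the reductase subunits differed in call. Rrm2 was at 50.8, 51.7 and 56.9 FPKM in control and 41.7, 42.2 and 40.5 in aged, which put every aged library lower (-0.35 ± 0.07, adjusted p = 0.0187). Rrm1, the large subunit, was at 26.2, 25.2 and 30.4 in control and 25.1, 23.6 and 26.9 in aged, with overlap (-0.11 ± 0.08, adjusted p = 0.448). Tk1, thymidine kinase, and Tyms, thymidylate synthase, had -0.31 ± 0.09 (adjusted p = 0.0637) and -0.21 ± 0.09 (adjusted p = 0.159). Among the genes that copy chromatin, Uhrf1, which brings the maintenance methyltransferase to new DNA, was at 40.1, 40.4 and 48.8 in control and 27.5, 29.4 and 38.4 in aged. Its highest aged library lay just under the lowest control library (-0.44 ± 0.12, adjusted p = 0.0429). Dnmt1, that methyltransferase, had -0.29 ± 0.09 (adjusted p = 0.0685), and the histone chaperone genes Chaf1a and Chaf1b and the histone mRNA binding gene Slbp ranged from -0.22 to -0.02.

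The genes that set S phase entry were not called. Ccne1, a cyclin of CDK2, was at 5.58, 5.19 and 7.74 FPKM in control and 5.68, 5.64 and 5.48 in aged (-0.10 ± 0.14, adjusted p = 0.664). Ccne2, its paralog, was at 7.67, 6.28 and 6.61 in control and 7.54, 6.73 and 6.63 in aged (0.02 ± 0.10, adjusted p = 0.911). E2f1, the transcription factor of many of these genes, was at 9.65, 10.6 and 12.6 in control and 8.85, 7.92 and 10.8 in aged (-0.23 ± 0.13, adjusted p = 0.27). For all 3 the groups overlapped. The fork protection genes Clspn and Tipin had -0.31 ± 0.10 (adjusted p = 0.0717) and 0.08 ± 0.09, and Dtl and the uracil glycosylase gene Ung had -0.23 ± 0.10 and -0.29 ± 0.14.

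The counts rested on single libraries. Without control replicate 3, which held the highest control value for 36 of 46 members, no member was called lower in aged than control (Pcna, adjusted p = 0.0545), and without aged replicates 1, 2 or 3 and control replicate 2 the count was 1, 2, 15 and 5. Lower calls over all tested genes went from 388 to 119 without control replicate 3 and to 114, 156, 662 and 129 in the others. Without control replicate 3 the members thus no longer had a larger share of lower calls than all tested genes. The members' count was 4 with only the 6 libraries compared and 3 with no filter on low values, while the median stayed between -0.29 and -0.18 under the 21 alternatives.

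**Figure D2:**
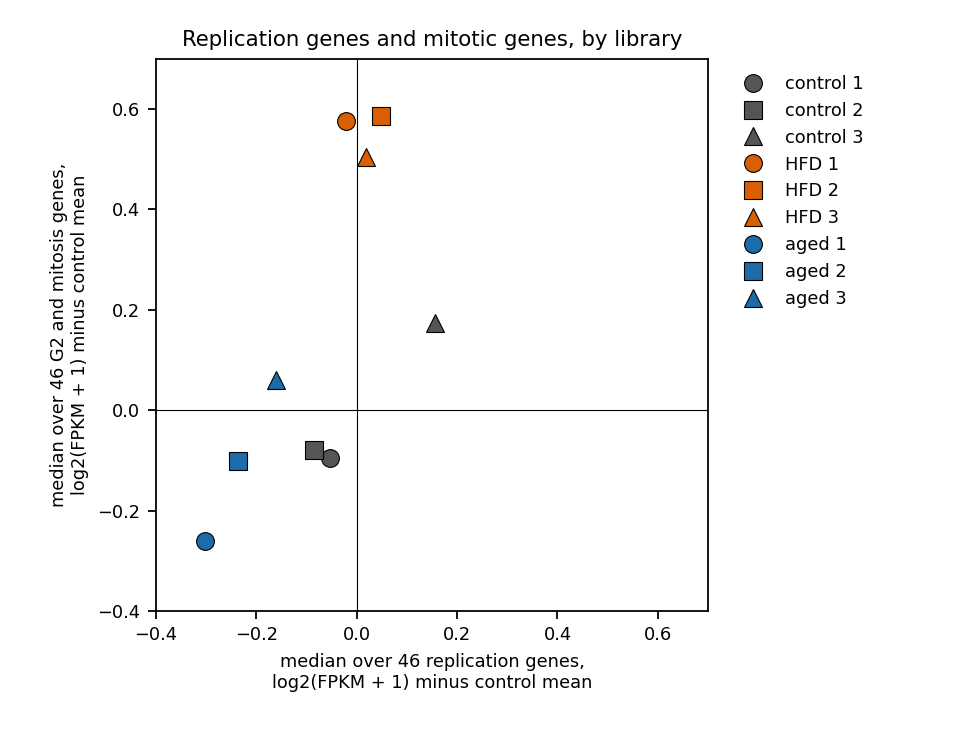
Each symbol is 1 library, placed by the median of log2(FPKM + 1) minus the control mean over the 46 members (horizontal) and over 46 G2 and mitosis genes (vertical). Aged libraries lie furthest left (-0.30, -0.24 and -0.16), whereas HFD libraries lie highest (0.58, 0.59 and 0.50) and near 0 on the horizontal axis.

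By library, the members' median of log2(FPKM + 1) minus the control mean was -0.05, -0.09 and 0.16 in control, -0.02, 0.05 and 0.02 in HFD and -0.30, -0.24 and -0.16 in aged. Aged replicate 3 had the highest aged value for 24 members. Over all tested genes these medians lay between -0.01 and 0.01. Control replicate 3 was also the highest control library for all 46 genes of the mitotic list. Spinous and granular markers summed to 7589 to 9465 FPKM in control and to 8890 to 12033 in aged, with overlap. Of these Krt1 was called higher in aged (means 1260 in control and 1936 in aged) and Lce1a1 lower, while Krt10 (3865 and 5573) was not called. Basal markers summed to 24017 to 30775 and 23922 to 25022, also with overlap, and of these Dst was called higher in aged. T cell markers summed to 59.5 to 75.3 in control and 37.2 to 45.4 in aged, through Thy1 and Trbc2, the only ones of the 10 at a mean of 1 FPKM. Hair follicle and sebaceous markers summed to 40.0 to 62.1 in control and 62.8 to 68.5 in aged, without overlap. The higher sum came through Scd1 (means 40.3 in control and 56.2 in aged). Hoxc13 and Msx2, the other markers of this list at a mean of 1 FPKM, had lower means in aged. None of these was called. The part of these differences in the members' lower levels was not tested.

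Set against HFD, the aged libraries were again lower in part of the members. These groups differ in age, and only the HFD group has a named diet. Of 46 members 10 fell and 0 rose (21.7% lower), with 4.45% of all tested genes lower and 3.54% higher. The median of the members was -0.20, against 0.00 for all tested genes, and only Cdc6, Ccne1 and E2f1 had a difference above 0. All aged libraries were below all HFD libraries for 23 members of 46, where 15.9% of tested genes showed this, and the reverse held for 0 members and 13.9% of tested genes. Both aged comparisons use the same aged libraries, so their calls are not independent. The 5 members lower in both were Mcm3, Mcm5, Mcm7, Pcna and Fen1.

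All 6 helicase genes separated aged from HFD libraries without overlap, and 5 were called. Mcm2 was at 16.9, 18.7 and 19.0 FPKM in HFD replicates 1 to 3, all above its aged values (-0.37 ± 0.10, adjusted p = 0.049). Mcm3 was at 31.0, 35.3 and 32.8 (-0.42 ± 0.10, adjusted p = 0.0235), and Mcm4 at 39.5, 47.3 and 42.1 (-0.39 ± 0.10, adjusted p = 0.0387). None of these 3 was called in HFD against control. Mcm5 was at 31.6, 36.7 and 40.9 (-0.46 ± 0.12, adjusted p = 0.0439) and Mcm7 at 32.4, 31.3 and 31.4 (-0.36 ± 0.09, adjusted p = 0.0377). Mcm6, at 50.7, 52.0 and 48.3, had -0.22 ± 0.09 and was not called (adjusted p = 0.157). The sum of the 6 genes was 202, 221 and 215 FPKM in HFD, above each aged library.

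Pcna again had the smallest adjusted p of the members. It was at 72.7, 71.1 and 72.5 FPKM in HFD, every library above those of aged, and was lower in aged by a difference of -0.55 ± 0.09 (adjusted p = 0.00398). Rfc2 was at 8.03, 8.65 and 9.66 in HFD and was not called (-0.28 ± 0.08, adjusted p = 0.0631), nor was Rfc4 (-0.37 ± 0.10, adjusted p = 0.0517). Fen1, at 24.6, 27.5 and 26.1 in HFD, was lower in aged without overlap (-0.44 ± 0.09, adjusted p = 0.0112).

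All 4 nucleotide supply genes were lower in each aged library than in each HFD library, and 2 were called. Rrm1 was at 31.7, 34.2 and 33.7 FPKM in HFD (-0.39 ± 0.08, adjusted p = 0.0181). Tyms, the enzyme that makes thymidylate, was at 14.3, 14.2 and 13.8 in HFD, 10.2, 11.8 and 10.2 in aged and 12.0, 11.6 and 14.1 in control (-0.36 ± 0.09, adjusted p = 0.0276). Rrm2, at 51.5, 47.9 and 44.4 in HFD, had -0.20 ± 0.07 (adjusted p = 0.119). At the fork, Clspn, the mediator that passes stalling signals to the checkpoint kinase CHK1, was at 10.5, 11.5 and 10.3 in HFD, 7.17, 8.53 and 8.31 in aged and 10.2, 8.94 and 11.5 in control. It was lower in each aged library than in each library of the other groups and was called against HFD (-0.39 ± 0.10, adjusted p = 0.0341). Uhrf1, at 38.0, 39.8 and 41.0 in HFD, overlapped with aged replicate 3 and was not called (-0.32 ± 0.12, adjusted p = 0.114). Cdt1 did not separate HFD from aged (-0.05 ± 0.13, adjusted p = 0.83), and its values in these groups overlapped.

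The count of 10 fell to 1 without HFD replicate 2, to 2 without HFD replicate 3 or aged replicate 1, to 4 without aged replicate 2 and to 3 with no filter on low values, where the lower calls over all genes went from 461 to 200, 223, 250, 310 and 316 (HFD replicate 2, HFD replicate 3, aged replicate 1, aged replicate 2 and no filter). Pcna was called under all 21 alternatives (adjusted p up to 0.0225), Fen1 under all but the loss of HFD replicate 2 (0.0541), and Mcm2 and Mcm4 each lost their call in 13. Beside these differences, basal markers summed to 27160 to 31841 FPKM in HFD, above the aged range given before. Most of this sum was Krt5 (means 12827 in HFD and 10695 in aged) and Krt14 (13870 and 11377), neither called. Krt15 alone of the basal markers had a higher mean in aged (695 in HFD and 813 in aged). T cell markers, at 50.2 to 56.6 in HFD, were also above their aged range, while hair follicle and sebaceous markers were below theirs, at 39.5 to 51.6. Of the last list Scd1 was called, higher in aged (means 34.1 in HFD and 56.2 in aged), while Hoxc13 and Msx2 had lower means in aged. The basal marker Itga6 and the spinous and granular marker Tgm3 were called lower in aged. Sweat gland markers separated these groups too, at 20.4 to 28.3 in HFD and 5.30 to 10.3 in aged, and both tested ones, Acta2 and Ehf, fell. Of those under a mean of 1 FPKM, Aqp5, Krt7 and Krt19 had higher means in aged and Krt18 a lower mean. The part of these differences in the members' values was not tested.

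**Figure D3:**
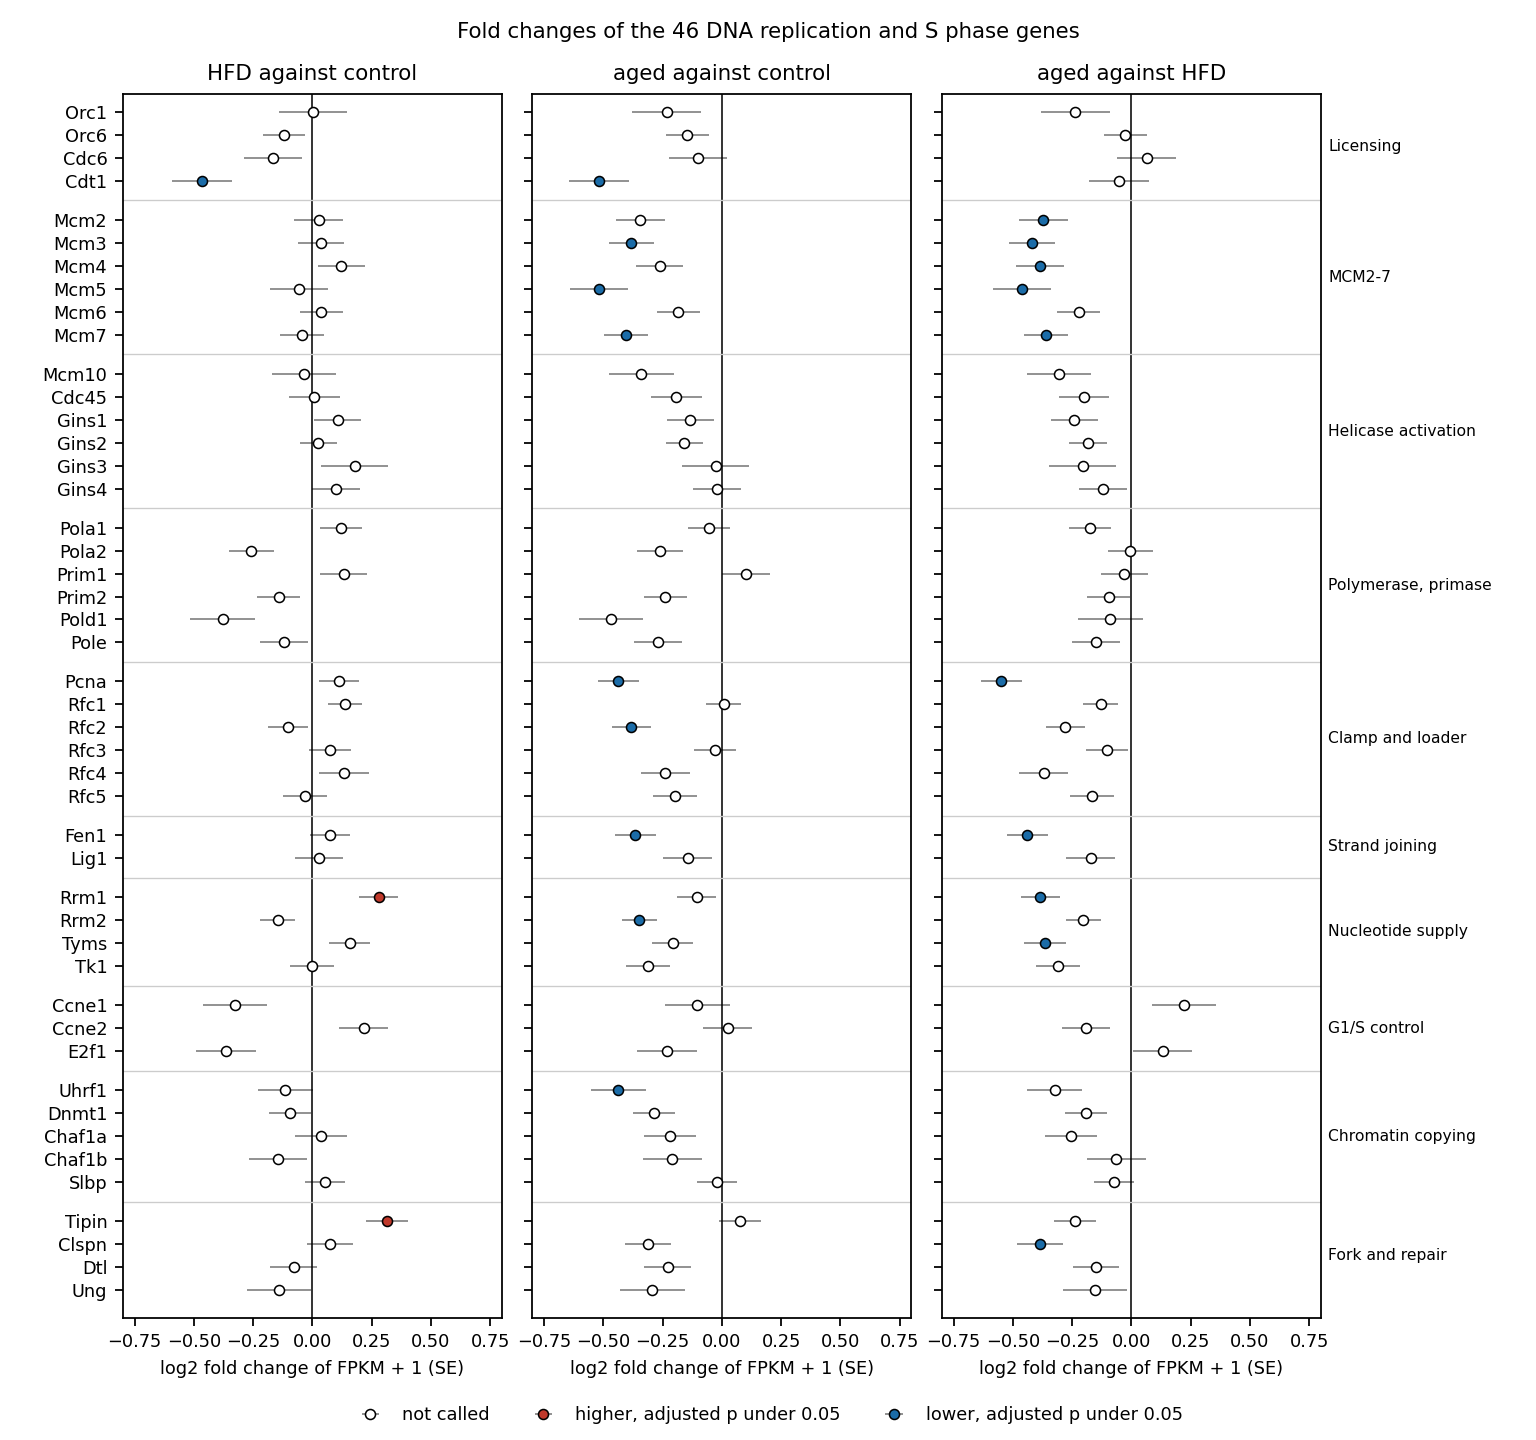
Difference in log2(FPKM + 1) (circle) with its SE (line) for each of the 46 members in the 3 comparisons, grouped by role, with filled circles for called members. Most points of both aged comparisons lie left of 0, whereas those of HFD against control lie on both sides.

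HFD and control animals had the same age, and their comparison asked what a high-fat diet does to basal cells. Replication genes as a list did not move one way. Of 46 members, 2 rose (Rrm1 and Tipin) and 1 fell (Cdt1), or 4.35% and 2.17%, whereas 8.26% of all tested genes were called higher and 8.76% lower. The members' shares were thus below the background in both directions. The median difference was 0.02, beside 0.01 for all tested genes, with 20 members below 0. No overlap between the groups was seen for 5 members on the higher side and 4 on the lower, against 20.8% and 19.6% of all tested genes.

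Rrm1 rose by 0.28 ± 0.08 (adjusted p = 0.0405), every HFD library listed above being higher than every control library. Its partner Rrm2 had -0.15 ± 0.07 (adjusted p = 0.185). Tipin, which with Timeless steadies the moving fork, was at 36.1, 29.9 and 37.7 FPKM in control, 45.9, 42.4 and 40.9 in HFD and 38.1, 35.0 and 36.1 in aged. It rose in HFD by 0.31 ± 0.09 without overlap (adjusted p = 0.0345). Cdt1 was at 11.9, 13.1 and 12.6 in HFD, under every control library, and fell by 0.47 ± 0.13 (adjusted p = 0.0289). It was the only member called lower in both HFD and aged against control, comparisons that share the control libraries. Cdc6 was at 1.68, 2.18 and 1.78 in HFD (-0.17 ± 0.12, adjusted p = 0.371).

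The helicase genes had differences from -0.06 to 0.12 in HFD, none called, with Mcm4 at 0.12 ± 0.10 and Mcm5 at -0.06 ± 0.12. Pcna was higher in each HFD library than in each control library, yet by 0.11 ± 0.09, which was not called (adjusted p = 0.389). Other members that separated the groups without passing the test were Rfc1, the largest clamp loader subunit (0.14 ± 0.07), and Prim1, the catalytic primase subunit (0.13 ± 0.10), both higher. Pold1 (-0.38 ± 0.14), Pola2, the accessory subunit of polymerase alpha (-0.26 ± 0.10), and E2f1 (-0.36 ± 0.13) were lower without overlap (adjusted p = 0.0771, 0.0859 and 0.0685). E2f1 was at 7.06, 8.68 and 9.10 FPKM in HFD. The cyclin E genes lay on opposite sides of 0, Ccne1 at 3.96, 5.64 and 4.48 (-0.33 ± 0.14) and Ccne2 at 7.08, 9.23 and 8.10 (0.22 ± 0.10), neither called.

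None of these 3 calls remained after a correction for GC content or with no filter on low values. Without HFD replicates 1, 2 or 3 there were also 0 members called in either direction, and Rrm1 lost its call without control replicate 1 or 2, Tipin without control replicate 2 and Cdt1 without control replicate 1 or 3 (adjusted p up to 0.259, 0.228 and 0.0945 over the alternatives). Over all tested genes, 856 higher and 908 lower became 606 and 555 after the GC correction. Leaving out HFD replicate 1 gave 452 higher and 425 lower, HFD replicate 2 gave 431 higher and 469 lower, and HFD replicate 3 gave 485 higher and 527 lower. Scaled to total FPKM, 1 member was higher and 2 were lower. Sweat gland markers summed to 20.4 to 28.3 FPKM in HFD and 9.76 to 10.8 in control, through Ehf, an epithelial transcription factor, and Acta2, an actin of contractile myoepithelial cells. These were the only ones of 8 at a mean of 1 FPKM. Both rose, with means of 9.35 and 13.2 in HFD and 2.49 and 5.68 in control. Aqp5, Krt7, Krt18 and Krt19, all under a mean of 1 FPKM, had lower means in HFD (Aqp5 0.586 in HFD and 0.957 in control). The summed T cell markers, at 50.2 to 56.6 in HFD and 59.5 to 75.3 in control, were lower without overlap. So were the summed fibroblast markers, at 10.1 to 11.0 and 11.1 to 15.4. The falls came through Thy1 (means 34.6 in HFD and 49.8 in control) and Dcn (2.03 and 5.22), both called. Trbc2 (17.3 and 15.7) and Fbln1 (8.23 and 7.75), the other markers of these lists at a mean of 1 FPKM, had higher means in HFD. Itga6, which encodes the sort marker CD49f, rose from a mean of 134 to 164. The basal marker Dst (32.8 to 47.6) and the spinous and granular marker Tgm3 (221 to 318) were also called higher. Calm4, Lce1a1 and Grhl1, of the spinous and granular list, were called lower. The part of these differences in the 3 calls was not tested.

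Genes that act after replication gave another pattern in the same libraries. Of 46 genes of G2 and mitosis, 36 rose (78.3%, against 8.26% of all tested genes) and 0 fell in HFD against control, with a median of 0.58. Every HFD library was above every control library for 44 of them, as for 20.8% of all tested genes. Mki67, a protein that coats mitotic chromosomes, was at 81.8, 85.7 and 101 FPKM in control, 161, 157 and 146 in HFD and 75.1, 92.8 and 97.2 in aged. It rose in HFD by 0.79 ± 0.11 (adjusted p = 0.00159) and had -0.02 ± 0.11 in aged against control (adjusted p = 0.921). In aged against control, 2 mitotic genes fell (4.35%, against 3.74% of all), Cenpa (-0.38 ± 0.10) and Cdca3 (-0.33 ± 0.09), and the list's median was -0.10, beside -0.23 for the members. Both calls ended without control replicate 3. Against HFD, 40 mitotic genes fell in aged (87%, median -0.70) beside 10 members (21.7%, median -0.20) and 4.45% of all tested genes. Whether the 2 lists differ was not tested. Transcripts of the mitotic list had a median GC content of 46.4%, members 48.9% and all tested genes 49.8%, and differences moved with GC across 10365 genes, which are not independent of each other. Spearman's rho was -0.46 in HFD against control, -0.33 in aged against control and 0.22 in aged against HFD. After the GC correction the mitotic medians in these comparisons were 0.49, -0.16 and -0.66 and the members' -0.01, -0.25 and -0.20.

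**Figure D4:**
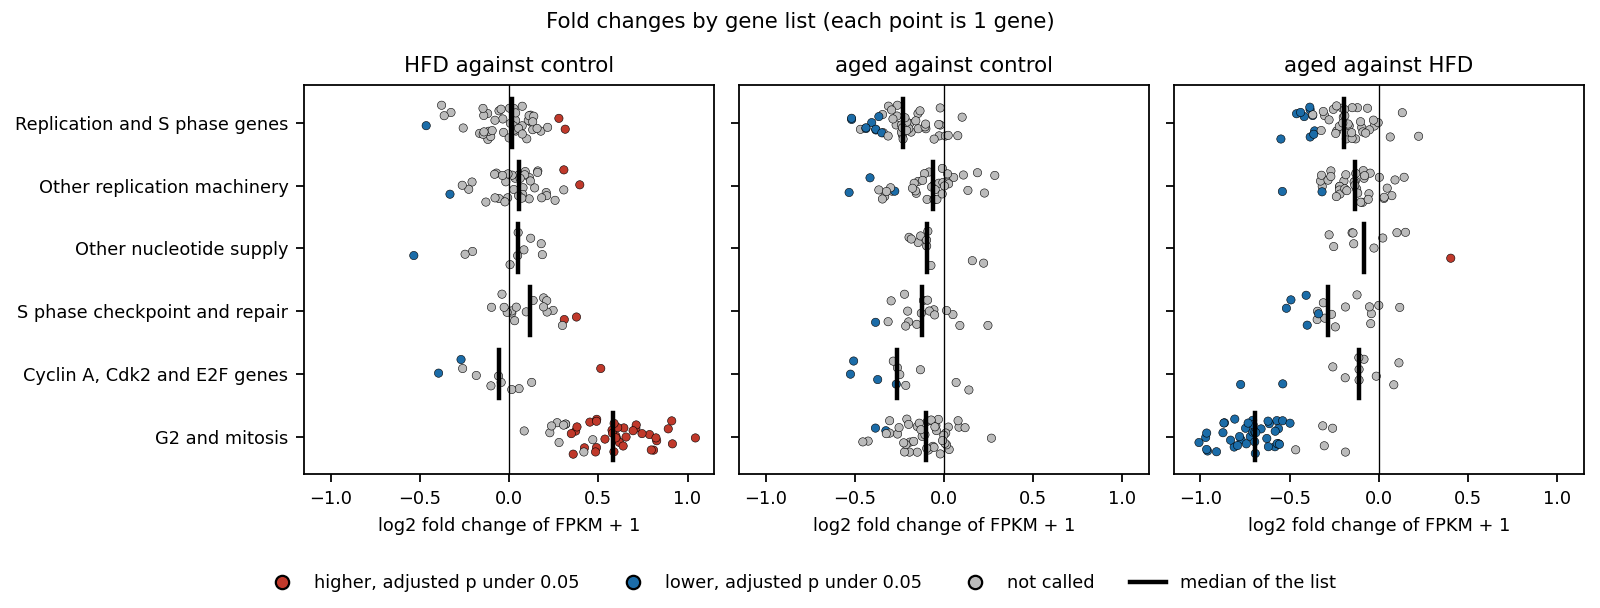
Differences in log2(FPKM + 1) of the members and of 5 other gene lists in the 3 comparisons, 1 point per gene, coloured where called, with a bar at each list's median and points spread vertically only for legibility. The G2 and mitosis list centres at 0.58 in HFD against control, where the members centre at 0.02, and the members centre at -0.23 in aged against control.

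Other genes of S phase were read from 4 further lists. Of 39 other replication genes, 38 were expressed enough to test. In aged against control 3 of them fell, namely Topbp1, which helps fire origins (-0.28 ± 0.07), Pold2, a subunit of polymerase delta (-0.41 ± 0.08), and Chtf18, of an alternative clamp loader (-0.53 ± 0.13), and none rose. That is 7.89% of the list, where 3.74% of all tested genes fell. In HFD against control, 2 rose, Dbf4, the activator of the origin kinase CDC7 (0.40 ± 0.10), and Top1, topoisomerase I (0.31 ± 0.09), and Pold2 fell (-0.33 ± 0.08). These are 5.26% and 2.63% of the list, both below the shares of all tested genes, 8.26% and 8.76%. Against HFD, aged cells had Dbf4 (-0.54 ± 0.10) and Hells, a chromatin remodeller (-0.32 ± 0.08), lower. These made up 5.26% of the list, beside 4.45% of all tested genes.

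Of 11 kinase and E2F genes, 4 fell in aged against control (36.4%, against 3.74% of all tested genes) and 0 rose (4.01% of all). These were Cdk2, the partner of cyclin E (-0.37 ± 0.08), E2f2 (-0.51 ± 0.11), E2f4 (-0.27 ± 0.07) and the repressor E2f8 (-0.52 ± 0.11). In HFD, Ccna2, the cyclin A gene that serves S phase and G2, rose from 54.8, 49.4 and 60.6 to 77.6, 81.4 and 77.0 FPKM (0.51 ± 0.09, adjusted p = 0.00552), and E2f2 (-0.40 ± 0.11) and E2f3 (-0.27 ± 0.08) fell. The shares of the list that rose and fell in HFD were 9.09% and 18.2%, beside 8.26% and 8.76% of all tested genes. Ccna2 was at 42.7, 42.8 and 51.7 in aged and with E2f8 was lower there than in HFD (-0.77 ± 0.09 and -0.54 ± 0.11). These made up 18.2% of the list, where 4.45% of all tested genes were lower.

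Among 18 checkpoint and repair genes, the checkpoint kinase gene Chek1 (0.38 ± 0.11) and Fanci, of crosslink repair (0.31 ± 0.10), rose in HFD. That is 11.1% of the list, beside 8.26% of all tested genes. Against HFD, 5 of the 18 were lower in aged (27.8%, against 4.45% of all tested genes). Among them were Chek1 (-0.49 ± 0.11), Fanci (-0.40 ± 0.10) and Fancd2 (-0.34 ± 0.09). Of 10 other nucleotide supply genes only Dctd, dCMP deaminase, was called. It fell in HFD against control (-0.53 ± 0.09, adjusted p = 0.00308) and was higher in aged than in HFD (0.40 ± 0.09). Each is 10% of the list, where 8.76% of all tested genes fell in HFD and 3.54% were higher in aged than in HFD. Of the 27 calls in these 4 lists, 5 held under all 21 alternatives, among them those of Dctd and Ccna2 in HFD against control and of Dbf4 and Ccna2 in aged against HFD. The others ended under 1 to 15 of them, and all 8 in aged against control ended without control replicate 3 and without aged replicate 1.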

How the data were processed

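RNA from 9 libraries of sorted plantar basal cells (3 control, 3 HFD, 3 aged) was sequenced with a stranded mRNA kit, per the labels' protocols. The authors deposited FPKM per gene. The submitters' processing notes name the mm10 genome and, with no roles, DESeq2 1.30.0, HTSeq 0.11.2, STAR 2.6.0c and cutadapt, and the gene lengths and strand setting are not given in the sources used here. From the deposited FPKM, log2(FPKM + 1) was computed and fitted with limma 3.58.1 in R 4.3.3 (a mean per group over all 9 libraries, eBayes with a trend, 6 residual and 5.5 prior degrees of freedom, two-sided tests, 10367 genes whose mean reached 1 FPKM), with Benjamini-Hochberg adjustment over all of them. Depth was estimated from low values, which fell on whole reads in 97.5% to 98.2% of cases (tolerance 0.02, up to 30 reads) with GENCODE M21 exon lengths. The lengths behind the FPKM thus match merged exons of GENCODE M21, though the notes do not name them. Library values were printed for members called in any comparison and for Pcna, Mcm2 to Mcm7, Rrm1, Rrm2, Ccne1, Ccne2, E2f1 and Cdc6. Of each pathway list up to 4 genes per comparison were named by smallest p, and Mki67 always. A gene that this rule names is not reported here. Members, lists and named genes were chosen with earlier results of these data known. The alternatives were a pseudocount of 0.1, other filters, other scalings, library weights, robust fitting, a replicate block, a GC correction, a fit to the 6 libraries at issue, and the loss of each library in turn. Single-cell data from dermis were not used here.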

Additional observations from a re-analysis of the deposited data

How the results depend on the processing

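Over 21 alternatives, 2877 single member results were recomputed: 2696 kept their direction and side of the threshold, 134 lost a call, 47 gained one and 0 called values reversed, and 105 differences changed sign with neither value called. The members higher and lower in HFD against control, 2 and 1, were 0 and 0 with no filter on low values, with the GC correction and with the GC correction and replicate block together, and 1 and 2 when scaled to total FPKM. The lower count was 2 with library weights and with only the 6 libraries compared. Leaving out 1 library gave 0 to 2 higher and 0 to 3 lower. In aged against control the lower count of 9 was 3 with no filter, 4 with only the 6 libraries and 0 to 15 with 1 library left out, and in aged against HFD the 10 were 3 with no filter and 1 to 11 with 1 left out. With fewer libraries the test also has fewer degrees of freedom. Other settings added lower calls. Library weights added Mcm2, Pold1 and Tk1 in aged against control and Rfc2, Rfc4, Tk1 and Uhrf1 in aged against HFD. Scaling to total FPKM added Mcm2, Tk1, Dnmt1 and Clspn in aged against control. In aged against HFD this scaling added Rfc4 and ended the calls of Mcm2, Mcm4 and Mcm5. No member was called higher in either aged comparison under any alternative.

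With the replicate number as a block, the lower counts were 13 in aged against control, 12 in aged against HFD and 3 in HFD against control, beside 2 higher in the last. Same-numbered libraries were not taken as pairs: the correlation of their deviations ran from -0.05 to 0.27 and was above 0.1 in 5 of 9 pairs, and 10 of 18 best matches in another group bore the same number. Each member rested on at least 199 estimated reads in every library, and counting error was not separated from the spread between libraries.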
